A study of Mus musculus with 2 samples.

Results

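The Mir148 and Mir152 family consists of 3 mouse microRNA genes, Mir148a, Mir148b and Mir152, whose mature 3p arms carry the same seed. The members were chosen by gene symbol, after Ensembl identifiers had been matched to GENCODE. No measured value entered that rule, although earlier results of these data were known when the members were chosen. They are 3 of the 1973 miRNA genes listed in the count files. The samples are 2 small RNA libraries of whole limb from B6NCrl mouse embryos at day 11.5, both sexes pooled, numbered biological replicates 2 and 1. Replicate 2 was made from 88 embryos and replicate 1 from 109, all described as healthy and without any genetic change or treatment. Both carry the same donor identifier, and the p-values here set the difference between these libraries against counting error. The series holds 1 group, so the comparisons are between the loci within each library and between the libraries.

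MicroRNAs are released from hairpin precursors as short strands that guide Argonaute proteins to messenger RNAs that pair with the seed near their 5′ end. MicroRNAs with the same seed can repress overlapping sets of messenger RNAs. The miR-148/152 family is known for repression of DNA methyltransferase 1, and miR-148a also for roles in cholesterol handling and B cell tolerance.

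The mature sequences, credited to RefSeq on build GRCm38.p6, are shown because the shared seed defines the family and the bases outside it are what separates the members' reads. They are written 5′ to 3′ with the seed, bases 2 to 8, in capitals.
mmu-miR-148a-3p: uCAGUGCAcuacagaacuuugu
mmu-miR-148b-3p: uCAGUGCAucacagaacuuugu
mmu-miR-152-3p: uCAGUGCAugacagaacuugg

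With positions counted from 1 at the 5′ end and the first-named miRNA's base first, miR-148a-3p and miR-148b-3p differed at C9U and U10C and were identical at 20 of 22 positions. MiR-148a-3p and miR-152-3p differed at C9U, U10G and U20G over 21 positions. MiR-148b-3p and miR-152-3p differed at C10G and U20G. Every one of these differences lies outside the seed. Of 1738 mature miRNAs in the RefSeq table, these 3 were the ones with the seed CAGUGCA. The opposite arms were less alike, and they are shown because the deposited counts pool both arms of a hairpin.
mmu-miR-148a-5p: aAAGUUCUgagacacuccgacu
mmu-miR-148b-5p: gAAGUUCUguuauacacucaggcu
mmu-miR-152-5p: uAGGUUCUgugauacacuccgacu

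MiR-148a-5p and miR-148b-5p also shared a seed with each other, and miR-152-5p had another. The hairpins are shown next, with the 3p arm in capitals, because a read can be placed at 1 locus only where the hairpins differ.
Mir148a: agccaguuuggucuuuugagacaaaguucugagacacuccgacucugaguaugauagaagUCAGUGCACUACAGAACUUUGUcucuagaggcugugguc
Mir148b: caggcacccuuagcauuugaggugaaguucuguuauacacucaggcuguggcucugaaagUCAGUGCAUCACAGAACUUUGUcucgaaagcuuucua
Mir152: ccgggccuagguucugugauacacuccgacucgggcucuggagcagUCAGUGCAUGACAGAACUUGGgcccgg

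The longest run shared by any 2 of these hairpins was 15 nt, between Mir148a and Mir148b. Mir152 shared at most 12 nt with another family member. Against the other hairpins in the table, outside the family, the longest shared run was 11 nt for Mir148a, 12 nt for Mir148b and 11 nt for Mir152. None of the members shared a 20-nt run with another hairpin of the table. The Mir152 hairpin is the shortest at 73 nt and has a GC content of 61.6%, against 45.5% for the 99-nt Mir148a and 45.4% for the 97-nt Mir148b hairpin.

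The 3 loci lie on 3 chromosomes of mm10, the assembly named in the files, which is GRCm38. Mir148a (ENSMUSG00000065505.1) lies at chr6:51269812-51269910 on the minus strand and overlaps no other gene in GENCODE M21. Mir148b (ENSMUSG00000065560.1) lies at chr15:103285125-103285221 on the plus strand, in an intron of all 4 spanning transcripts of Copz1. Mir152 (ENSMUSG00000065515.1) lies at chr11:96850393-96850465 on the plus strand, in an intron of all 3 spanning transcripts of Copz2, and starts 523 nt from the host gene's start. Copz1 and Copz2 are paralogs that encode the zeta subunits of the COPI coat, which carries vesicles between Golgi and endoplasmic reticulum. Both hosted members are transcribed in the direction of their host.

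A shared neighbourhood, which the choice of members did not use, marks all 3 loci. Upstream of each member and on the opposite strand lies a gene of the Nfe2 family of leucine-zipper transcription factors. It is Nfe2l3 at 163 kb from Mir148a, Nfe2 at 26.8 kb from Mir148b and Nfe2l1 at 20.5 kb from Mir152. Farther upstream, on the same strand as the member, lies a Hox cluster, a row of developmental genes that give limb and trunk cells their position. The nearest gene of the Hoxa cluster is 886 kb from Mir148a, that of the Hoxc cluster 248 kb from Mir148b and that of the Hoxb cluster 482 kb from Mir152. The remaining Nfe2 family gene, Nfe2l2, is on chromosome 2 with the Hoxd cluster, where no member of the family is annotated.

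**Figure D1:**
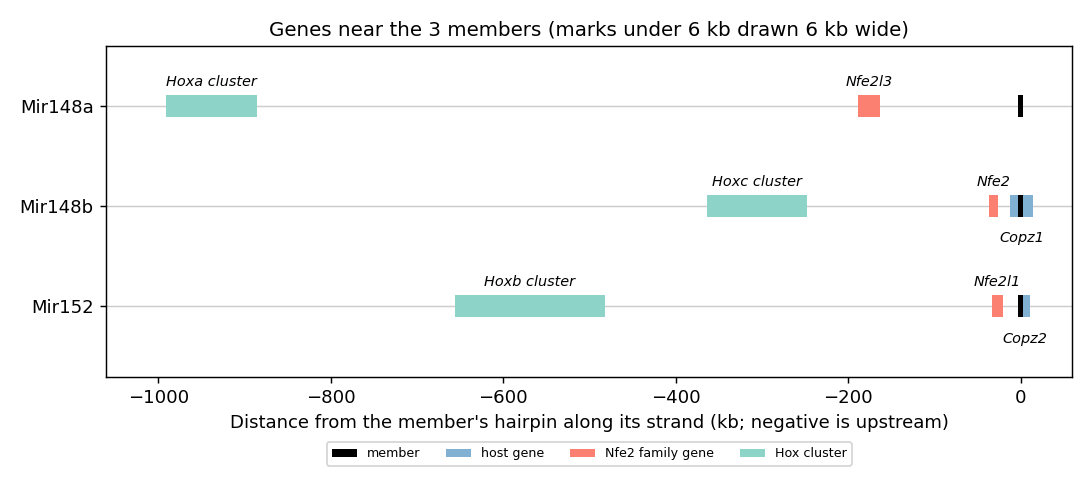
Map of the genes around each family member, with distance in kb along the member's own strand on the horizontal axis and 1 row for each member. In all 3 rows the Hox cluster lies farthest upstream and an Nfe2 family gene lies between it and the member, at 163 kb for Mir148a, 26.8 kb for Mir148b and 20.5 kb for Mir152.

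The members stand alone as miRNA genes. No other listed miRNA gene lay within 50 kb of any of them. The nearest detected miRNA gene, at 10 CPM or more in both libraries, was in each case one encoded in the neighbouring Hox cluster. CPM is a gene's sense count scaled to a total of 1000000 sense counts over all miRNA genes. For Mir148a it was Mir196b at 960.2 kb, with 68466 CPM in replicate 2, against 72172 CPM in replicate 1. For Mir148b it was Mir615 at 270.1 kb, with 4289 CPM in replicate 2, against 4210 CPM in replicate 1. For Mir152 it was Mir10a at 533 kb, with 16836 CPM in replicate 2, against 16087 CPM in replicate 1. Each of these miRNAs stood far above the family member on its chromosome.

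Sites for the seed were looked up in messenger RNAs that have been reported as targets of the family. A match of sequence does not show that pairing takes place. The motif TGCACTG, the reverse complement of the seed, was searched on the mRNA strand of the longest 3′ UTR annotated for each protein-coding gene in GENCODE M21. It was found in 12.7% of 21020 such UTRs. It was present in Dnmt1, Abca1, Mitf, Wnt1, Bcl2l11 and Gadd45a, and Dnmt3b held none in its 3′ UTR of 1331 nt. These genes are an incomplete selection of reported targets, picked after the counts were seen, so they give no share to set against that of all UTRs. Coding sequences were not searched, so a site in that of Dnmt3b would not be seen. Messenger RNA was not measured in this series.

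A site in each of 3 of these UTRs is shown because it is followed by an A, which lies opposite the first base of the miRNA. Capitals mark TGCACTGA, and the letters are DNA from the GENCODE M21 transcripts.
Dnmt1: ccagagccccacgTGCACTGAtgttt
Gadd45a: aactgaaccaaatTGCACTGAagttt
Bcl2l11: ttcctttacgtttTGCACTGAtgaat

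Dnmt1 copies DNA methylation to the new strand at replication, and its site starts at position 23 of a 312-nt UTR. Of 1699 UTRs between 0.8 and 1.2 times that length, 3.12% held TGCACTG. Gadd45a, a growth arrest and DNA damage gene, had its site at position 32 of 563 nt, with 6.63% of similar UTRs holding the motif. Bcl2l11, which encodes the cell death protein Bim, had it at position 4080 of 4218 nt, against 32.4% of similar UTRs, and held 2 more sites without the A.

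The seed also overlaps that of another family. Bases 3 to 8 of the family's 3p arms, AGUGCA, are bases 2 to 7 of miR-130a-3p, miR-130b-3p and miR-301a-3p. A site preceded by T therefore also reads TTGCACT, which pairs with that other family, and the 2 motifs overlap by 6 letters. The Gadd45a and Bcl2l11 sites shown are preceded by T, and that of Dnmt1 is not. Among all 3127 TGCACTG sites in the UTRs searched, 24.7% were preceded by T.

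Depth set the precision of the levels. Sense counts of miRNA genes totalled 3459176 in replicate 2 and 2953085 in replicate 1, which is 46.6% of the reads in the file of replicate 2 and 44.3% of those of replicate 1. Where nothing was counted, the level could still be as high as 0.867 CPM in replicate 2 or 1.02 CPM in replicate 1, taking 3 counts as the bound. This bound and the Wilson 95% intervals describe counting error alone, since reads copied by PCR are not separate molecules. The 4 markers of limb mesenchyme and cartilage were all detected and summed to 53649 CPM in replicate 2 and 57709 CPM in replicate 1. The 3 Hox cluster miRNAs on the marker list summed to 121350 CPM in replicate 2 and 124029 CPM in replicate 1. Endothelial Mir126a averaged 24194 CPM, and the 3 epithelial markers summed to 10666 CPM in replicate 2 and 9021 CPM in replicate 1. The 2 markers of skeletal muscle summed to 576 CPM in replicate 2 and 559.8 CPM in replicate 1, those of red blood cells to 481 CPM in replicate 2 and 367 CPM in replicate 1, and those of white blood cells to 719.5 CPM in replicate 2 and 656 CPM in replicate 1. Liver Mir122 averaged 18.2 CPM, and none of the 5 listed neuronal markers reached 10 CPM, although near-identical copies of those genes can lose reads.

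All 3 members were detected, at moderate levels and in the same order in both libraries. Mir148a had 2572 sense counts in replicate 2 and 2329 in replicate 1. That is 743.5 CPM (715 to 773) in replicate 2 and 789 CPM (757 to 821) in replicate 1, with Wilson 95% intervals in brackets. Its mean was 766 ± 31.9 CPM (SD, n = 2), the highest of the family, and it ranked 108 among the 1973 genes. Of those genes, 1267 had no sense count in either library and 295 reached 10 CPM in both. Because whole limb was used, fewer cells that express a miRNA and less of it per cell cannot be told apart.

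Mir148b, the copy in Copz1, had 1088 sense counts in replicate 2 and 966 in replicate 1. Its level was 314.5 CPM (296 to 334) in replicate 2 and 327 CPM (307 to 348) in replicate 1. The mean was 321 ± 8.9 CPM (SD, n = 2), at rank 138. Neither of its intervals overlaps those of Mir148a.

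Mir152, the copy in Copz2, had 248 sense counts in replicate 2 and 216 in replicate 1. Its level was 71.7 CPM (63.3 to 81.2) in replicate 2 and 73.1 CPM (64.0 to 83.6) in replicate 1. The mean was 72.4 ± 1.0 CPM (SD, n = 2), at rank 214, so Mir152 was the lowest member in both libraries. All 3 members had 0 counts on the opposite strand in both libraries.

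**Figure D2:**
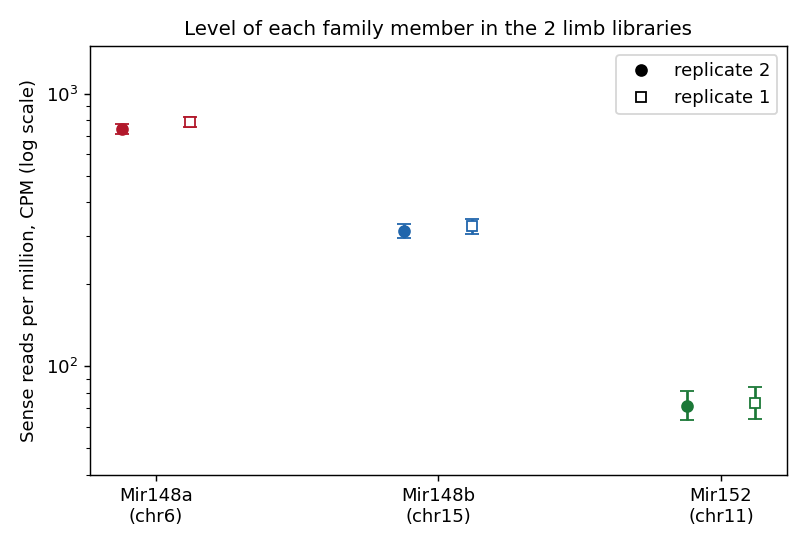
Level of each member in CPM on a log axis, with replicate 2 as filled circles, replicate 1 as open squares and Wilson 95% intervals as bars. Mir148a lies near 766 CPM, Mir148b near 321 CPM and Mir152 near 72.4 CPM, and the intervals of different members do not overlap.

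**Figure D3:**
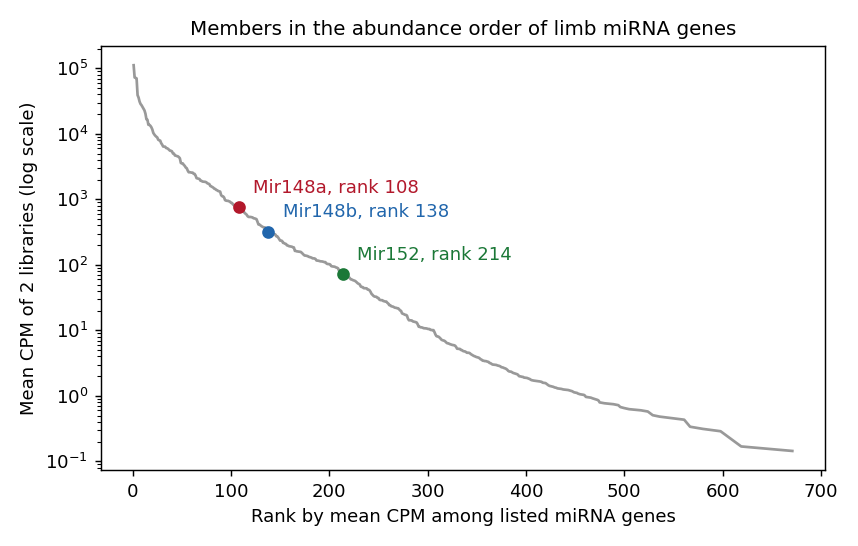
Mean CPM of the 2 libraries on a log axis against rank for every listed miRNA gene with a sense count. Mir148a, Mir148b and Mir152 sit at ranks 108, 138 and 214, on the middle slope of the curve, and 295 genes reached 10 CPM in both libraries.

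The genes with the levels most like each member were found by the distance between log2(CPM + 1) values over the 2 libraries. Mir320 at 763 ± 15.6 CPM and Mir96 at 753 ± 35.5 CPM were nearest to Mir148a, with distances of 0.09 and 0.13. Mir302b at 315 ± 8.7 CPM and Mir181a-2 at 307 ± 7.8 CPM were nearest to Mir148b, each at 0.09. Mir669c at 72.6 ± 5.0 CPM and Mir218-2 at 70.3 ± 4.5 CPM were nearest to Mir152, at 0.08 and 0.10. In the order of mean levels Mir148a stood between Mir323 and Mir320, Mir148b between Mir376c and Mir543, and Mir152 between Mir669c and Mir218-2. None of these 3 members differed from its neighbours in that order by more than the larger SD of the pair. The exact ranks are therefore not resolved, while the order among the 3 members is.

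Within the family, 1 locus supplied most of the reads. Mir148a held 65.8% of the family's counts in replicate 2 (Wilson 95% interval 64.3 to 67.3) and 66.3% in replicate 1 (64.8 to 67.9). Mir148b held 27.8% in replicate 2 (26.5 to 29.3) and 27.5% in replicate 1 (26.1 to 29.0). Mir152 held 6.35% in replicate 2 (5.62 to 7.15) and 6.15% in replicate 1 (5.40 to 7.00). The division of the family's reads was thus nearly the same in both libraries, and for each member the intervals of the libraries overlap.

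As ratios of counts, Mir148a was 2.36-fold above Mir148b in replicate 2 and 2.41-fold in replicate 1. The mean log2 ratio was 1.26 ± 0.02 (SD, n = 2), and its counting error was 0.05 in replicate 2 and 0.06 in replicate 1. Mir148a was 10.4-fold above Mir152 in replicate 2 and 10.8-fold in replicate 1, a log2 ratio of 3.40 ± 0.04 with a counting error of 0.10 in each library. Mir148b was 4.39-fold above Mir152 in replicate 2 and 4.47-fold in replicate 1, a log2 ratio of 2.15 ± 0.02 with counting errors of 0.10 in replicate 2 and 0.11 in replicate 1. Each of these 3 ratios was many times its counting error, and each SD was smaller than that error. No test was run on them, because the smallest p of an exact sign-flip test is 0.5 when there are 2 libraries.

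The counts were not divided by length, since the size range in the labels is that of mature miRNAs, whose arms are 21 to 24 nt here. Divided by hairpin length, the log2 ratio of Mir148a to Mir152 became 2.96 and that of Mir148b to Mir152 became 1.74, with the same order. The SD does not cover a bias of library preparation that depends on sequence and affects both libraries alike, and the ratios are of reads. Its part in the ratios was not tested.

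The whole family held 3908 counts in replicate 2 and 3511 in replicate 1. That is 0.113% of sense counts in replicate 2 (Wilson 95% interval 0.109 to 0.117) and 0.119% in replicate 1 (0.115 to 0.123). The mean share was 0.116% ± 0.004 (SD, n = 2). The intervals of the libraries overlap, but overlap is not a test. A difference in the family's share between the libraries was not tested.

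Other small families are set beside it to place that share. The Mir130-301 family includes the miRNAs named above for their overlapping seed. With Mir301b, for which that overlap was not shown, it summed to 41746 CPM in replicate 2 and 43030 CPM in replicate 1. The Mir148 and Mir152 family summed to 1130 CPM in replicate 2 and 1189 CPM in replicate 1, so the Mir130-301 sum was 36.6-fold larger. Mir130a led it at 31241 ± 780 CPM, followed by Mir130b at 9391 ± 197 CPM, Mir301 at 1602 ± 75.2 CPM and Mir301b at 153.4 ± 6.8 CPM (SD, n = 2). Every Mir130-301 gene apart from Mir301b stood above Mir148a.

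The Mir26 and Mir103-107 families also lie in introns of paralogous host genes, the Ctdsp and Pank genes. The Mir26 family summed to 16495 CPM in replicate 2 and 17093 CPM in replicate 1, and Mir26b held 99.7% of it in both, at 16742 ± 423 CPM. Mir26a-2, at 38.7 ± 1.2 CPM, and Mir26a-1, at 13.4 ± 0.7 CPM, share a 20-nt run with each other, so their reads can be lost as multimapping. The Mir103-107 family summed to 1821 CPM in replicate 2 and 1898 CPM in replicate 1, and Mir107 held 92.9% of it in replicate 2 and 93.6% in replicate 1, at 1735 ± 60.01 CPM. Mir103-2, at 117 ± 5.9 CPM, and Mir103-1, at 7.8 ± 0.4 CPM, share such a run with each other and with Mir107. The levels of those 5 genes are uncertain for that reason, and the shares of the leading genes with them, whereas the Mir148 and Mir152 hairpins and the 4 Mir130-301 hairpins hold no such run. Mir130a held 73.5% of its family in replicate 2 and 73.9% in replicate 1, while Mir148a held 65.8% of its own in replicate 2 and 66.3% in replicate 1. These intervals do not overlap, although they cover counting error only.

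**Figure D4:**
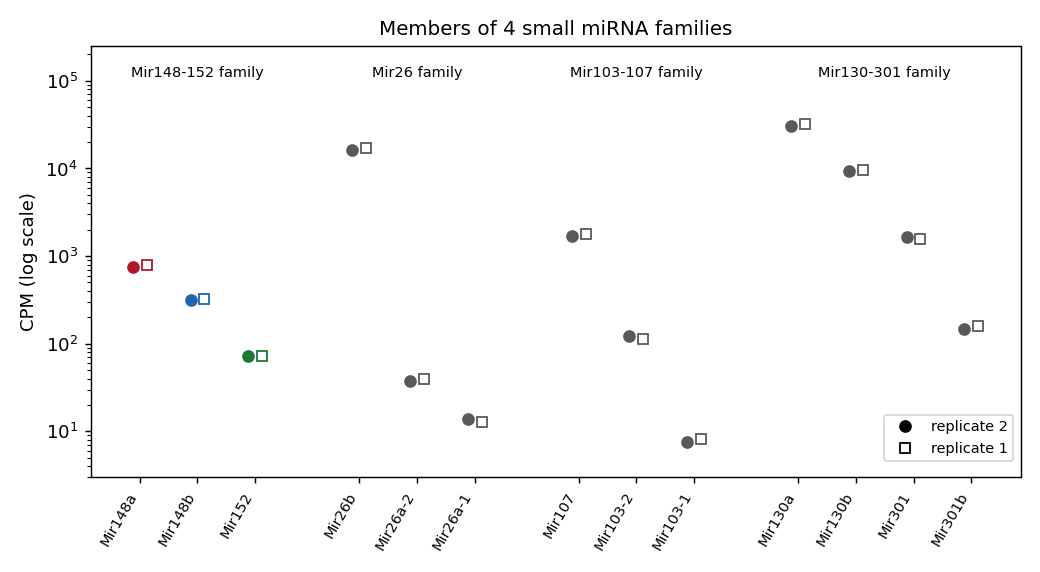
CPM on a log axis of each gene of 4 small miRNA families, with replicate 2 as filled circles and replicate 1 as open squares. The Mir148 and Mir152 genes span 72.4 to 766 CPM, while Mir130a stands at 31241 CPM and Mir26b at 16742 CPM.

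Between the libraries, all 3 members were slightly lower in replicate 2, and none passed the test. The test was a two-sided exact binomial test of replicate 2 against replicate 1, given TMM-scaled library sizes, on all 422 genes with 10 or more counts, with Benjamini-Hochberg adjustment at 0.05. It called 90 genes, or 21.3% of those tested, with 40 higher and 50 lower in replicate 2. The libraries thus differed beyond counting error. Whether they are independent pools of embryos was not tested. Of the members 0 of 3 were called, and 1 of 3, Mir148a, had an unadjusted p under 0.05.

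Mir148a had a log2 ratio of −0.10 (95% counting interval −0.18 to −0.02), 0.934-fold, with an exact binomial p of 0.018 and an adjusted p of 0.0784. With 100 or more counts required, which leaves 279 genes, its adjusted p by the same exact test was 0.0466, so the call depends on this filter. Mir148b had a log2 ratio of −0.07 (−0.19 to 0.06) and an adjusted p of 0.559. Mir152 had a log2 ratio of −0.04 (−0.31 to 0.22) and an adjusted p of 0.925. The intervals of Mir148b and Mir152 include 0, and that of Mir152, with 464 counts over both libraries, is the widest. Among the 231 tested genes at a mean of 50 CPM or more, the median difference was 1.06-fold, and 84 were called.

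Several of the cell type markers also differed between the libraries by the same exact binomial test. At a mean of 50 CPM or more that test called 84 of 231 genes, so a call is common at such levels. With overdispersion taken from the mean over genes, 12 of all tested genes were called. The epithelial markers Mir203, Mir205 and Mir200b were called higher in replicate 2, with log2 ratios of 0.30, 0.20 and 0.14. Of the 4 markers of mesenchyme and cartilage, Mir140, Mir214 and Mir199b were called lower in replicate 2, with log2 ratios of −0.19, −0.09 and −0.30, and Mir455 had −0.01 and was not called. Of the red blood cell markers, Mir451a was called higher, with a log2 ratio of 0.43, and Mir144 had −0.27 and was not called. Of the Hox cluster miRNAs on the marker list, Mir196b was called lower, with −0.09, Mir10a higher, with 0.05, and Mir10b was not called. Outside that list, Mir196a-2 of the Hoxc cluster was called lower, with −0.13, and Mir615 and Mir196a-1 were not called. Endothelial Mir126a was called lower, with −0.02. The listed markers of skeletal muscle, white blood cells and liver were not called. The part of these shifts in the members' values was not tested.

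The ratios between the members moved less than their counting error from library to library. Mir148a over Mir148b was lower in replicate 2 by a log2 difference of −0.03, with a counting error of 0.08. Mir148a over Mir152 differed by −0.06 with an error of 0.14, and Mir148b over Mir152 by −0.03 with an error of 0.15. At this depth no change in the division of the family between the libraries was detectable.

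**Figure D5:**
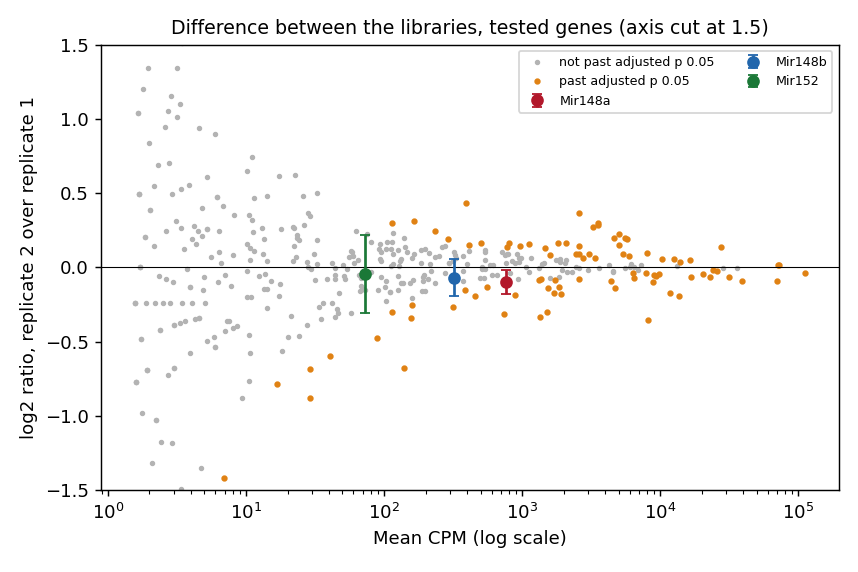
Log2 ratio of replicate 2 over replicate 1 against mean CPM on a log axis for the 422 tested genes, with called genes in orange, the 3 members in colour and bars for their 95% counting intervals. The members lie between −0.10 and −0.04, inside the cloud of genes at their levels; 6 genes beyond 1.5 are not drawn.

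Other miRNAs reported to repress DNA methyltransferase messenger RNAs were set beside the family, as a list of 9 genes. Mir143, reported in human cells to target DNMT3A, had 6140 CPM in replicate 2, against 5330 CPM in replicate 1. Mir342 had 4987 CPM in replicate 2, against 4318 CPM in replicate 1, and Mir101b had 2608 CPM in replicate 2, against 2593 CPM in replicate 1. Mir342 has been reported to target DNMT1 and miR-101 to target DNMT3A, both in human cells. These 3 genes stood above Mir148a. Mir185, at 185 ± 4.1 CPM, and Mir101a, at 101 ± 5.8 CPM, lay between Mir148b and Mir152.

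The Mir29 genes, which repress Dnmt3a and Dnmt3b, lay at the lower end of that list. Mir29c had 65.9 CPM in replicate 2, against 71.1 CPM in replicate 1, and Mir29a had 29.2 CPM in replicate 2, against 23.7 CPM in replicate 1. Mir29b-1 and Mir29b-2 had at most 2 counts in either library and were not tested; they share sequence with each other, as Mir29b-1 does with Mir29c and Mir101a with Mir101b, so these levels can be too low. Of the 7 tested genes of the list 2 were called higher in replicate 2 by the exact binomial test and 0 lower, against 9.48% and 11.8% of all tested genes. Those 2 were Mir143, with a log2 ratio of 0.19, and Mir342, with 0.20. Both averaged above 50 CPM, a level at which 84 of 231 tested genes were called in either direction. With overdispersion taken from the mean over genes 0 of the list were called, and 12 genes in all. The median log2 ratio of the list was 0.03, beside −7.65e-06 over all genes tested.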

How the data were processed

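Small RNA of embryonic mouse limb was sequenced in 2 libraries of 1 group. The deposited files hold raw read counts per miRNA gene with no normalization, and the notes deposited with them name assembly mm10 with M4 of GENCODE. Which aligner and counter were used is not given in the sources used here. Of 3 count columns without a header, the first equals the sum of the others, and the column that holds nearly all counts was read as the sense strand, from the values. Multimapping reads, 23.4% of reads in replicate 2 and 24.7% in replicate 1, are in no gene's count, and lines that name no gene entered neither library sizes nor tests. A gene is a hairpin, so its arms cannot be told apart.

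Symbols, hosts and UTRs came from GENCODE M21, which matched 1894 of 1973 genes; all 3 members matched the RefSeq miRNA table at the same coordinates. CPM, shares and log2 ratios were computed per library. TMM factors came from edgeR 4.0.16 in R 4.3.3; its quasi-likelihood test needs groups and was not used. Log2 ratios between libraries used a prior count of 0.5. Alternatives covered scaling (total counts, DESeq2 1.42.0 size factors), filter, prior count, count column, denominator, length, overdispersion and each library alone. Python 3.11.15 with scipy 1.17.1 did the rest. The test was tried on simulated counts that held counting error alone. These libraries differ by more than that, so the trial gives no rate of false calls for them. The members and lists were chosen with earlier results of these data known, and the reported targets after the members' counts were seen; some other targets are not reported here. Named genes are the members, the comparison families, the methyltransferase list, the 2 genes nearest to each member in level, its neighbours in rank and any listed miRNA gene within 50 kb.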

Additional observations from a re-analysis of the deposited data

How the results depend on the processing

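The order Mir148a, Mir148b, Mir152 and the sign of every log2 ratio given for the members held under all alternatives run. Against all reads in the files the levels became 348, 146 and 32.9 per 1000000 reads and the family share 0.0527%. Without the most abundant gene in the denominator they became 863, 361 and 81.5 CPM, and with counts of both strands Mir152 had 70.8 CPM. Per nt of hairpin the log2 ratios were 1.23 for Mir148a over Mir148b, 2.96 for Mir148a over Mir152 and 1.74 for Mir148b over Mir152. The values of each library alone are those given per library above. The binomial test called 90 genes, 48 with overdispersion taken from the median gene and 12 with it taken from the mean. With 100 or more counts required, Mir148a had a log2 ratio of −0.10 and an adjusted p of 0.0466 by the exact test; its adjusted p ranged up to 1.0 over the alternatives, and no other setting called a member. With the mean overdispersion 0 genes of the methyltransferase list were called, 2 of them with an unadjusted p under 0.05, against 2 called by the exact test. No paired analysis was possible because the series holds 1 group. Depth limits Mir152 most: with 248 and 216 counts in replicates 2 and 1, its ratio between libraries has a counting error of 0.13 on the log2 scale.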
